A study of Mus musculus with 6 samples.

Results

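The matrix metalloproteinases (MMPs) and their tissue inhibitors (TIMPs) were described in nuclear RNA of mouse neural precursor cells. The 10 genes were taken by symbol from a given list: 6 proteases (Mmp2, Mmp14, Mmp15, Mmp16, Mmp17 and Mmp24) and all 4 inhibitors (Timp1, Timp2, Timp3 and Timp4). Each had a row among the 23337 gene rows of every count file, and 9 of the 10 had enough counts to be tested, Mmp24 being the exception. The cells came from the dorsal forebrain of E13.5 mouse embryos and were grown on a Matrigel coat, which is itself basement membrane matrix, with EGF and basic FGF at 20 ng/ml each. They were used at passage 6 to 7 near 80% confluency, and RNA was extracted from the nuclear fraction. There were 2 groups: WT lines 3, 8 and 19, labelled Fmr1 WT, and KO lines 3, 13 and 16, labelled Fmr1 KO, which by their label lack Fmr1 (its product FMRP binds RNA). The series' text calls the lines independent. How the Fmr1 allele was made, and whether each line came from a separate embryo, was not stated in the labels read here, and p-values measure the spread between these lines.

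MMPs are zinc-dependent proteases that cut extracellular matrix and cell surface proteins. They are made as inactive precursors, and a prodomain has to be removed before they act. Mmp2 is secreted, whereas Mmp14, Mmp15, Mmp16 and Mmp24 span the cell membrane and Mmp17 is held to it by a lipid anchor. TIMPs bind the active site of MMPs. Timp1 inhibits most secreted MMPs but is a weak inhibitor of the transmembrane ones, Timp2 also takes part with Mmp14 in the activation of Mmp2, and Timp3 binds to the matrix and inhibits some ADAM and ADAMTS proteases too. In the developing brain these proteins are known for roles in cell migration, neurite growth and the shaping of the matrix around precursor cells.

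Total counts ran from 18702738 to 26789522 per library, so that 1 count was worth 0.0366 to 0.0542 CPM (CPM being counts scaled to library size with edgeR's TMM factors), and 16633 to 17248 genes had a count. Fmr1 did not follow the label in every library. Its level was 223, 270 and 274 CPM in WT lines 3, 8 and 19, and 371, 188 and 153 CPM in the libraries labelled KO line 3, 13 and 16. The library labelled KO line 3 was thus above all 3 WT libraries (log2 fold change between groups -0.10, SE 0.29, edgeR adjusted p = 0.795). A gene's count does not tell which of its exons were read. Directions below are therefore between libraries labelled KO and WT libraries. When KO line 3 was left out, the Fmr1 log2 fold change was -0.58 (edgeR adjusted p = 0.00152). WT line 19 and KO line 3 were the libraries farthest from the others of their label, their chi-square over degrees of freedom against those libraries being 61.3 to 91.5, and 10.8 and 16.4 for the remaining pairs. This measure sums over genes and weighs abundant RNAs most. Rn45s, a ribosomal precursor RNA, was at 18740 CPM in WT line 19 and at 1078 to 2568 CPM in the others. Xist, an RNA of the inactive X chromosome, was at 15470, 18430 and 81.8 CPM in WT lines 3, 8 and 19. In KO lines 3, 13 and 16 Xist was at 20510, 3.34 and 1.67 CPM. The part of these RNAs in the chi-square was not tested.

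Of the 9 members tested, 3 passed edgeR's quasi-likelihood test at an adjusted p of 0.05. Mmp14 and Mmp16, both transmembrane proteases, rose in the libraries labelled KO, each to 1.7 times its WT mean. Timp1 fell to 0.336 of its WT mean. The other 6 tested members, Mmp2, Mmp15, Mmp17, Timp2, Timp3 and Timp4, did not pass. Over all 13925 genes tested 42.3% passed (21.8% upward and 20.4% downward), so the share of members that passed (33.3%) was no larger than the background. The libraries labelled KO and WT did not overlap for 3 of the 9, Mmp16, Mmp17 and Timp1, where 54.3% of all genes tested did not overlap. The median log2 fold change of the tested members was -0.20, and that of all genes tested was 0.01. A bulk level cannot tell fewer cells with an RNA from less RNA per cell, and a nuclear level is not a protein level.

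**Figure D1:**
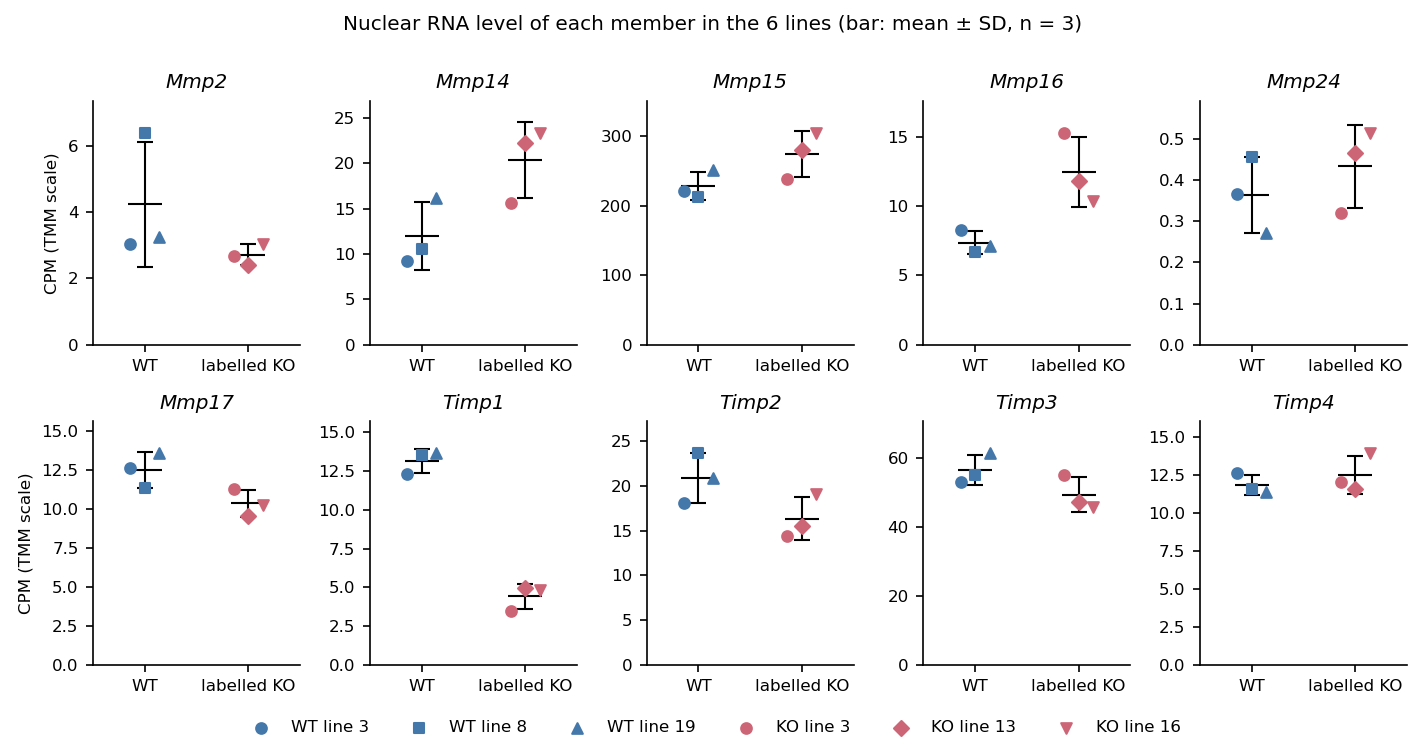
CPM on the TMM scale (vertical axes, each from 0) of the 10 members in the 3 WT lines (blue) and the 3 lines labelled KO (red), with a symbol for each line and the mean and SD of 3 lines in black. Timp1 shows the largest fold difference, with WT lines at 12.3 to 13.7 CPM and lines labelled KO at 3.47 to 4.95 CPM, while Mmp24 stayed at or under 0.515 CPM in every line.

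Timp1, the inhibitor of most secreted MMPs, is a gene of the X chromosome (ENSMUSG00000001131.11, X:20870166-20874735 in GRCm38, plus strand). Its level was 12.3, 13.53 and 13.7 CPM in WT lines 3, 8 and 19, and 3.47, 4.95 and 4.85 CPM in the libraries labelled KO line 3, 13 and 16. These came from 252 to 336 counts per WT library and 65 to 117 counts per library labelled KO. All 3 WT libraries were above all 3 libraries labelled KO, and KO line 3 was the lowest. The coefficient of variation was 5.76% over the WT lines and 18.6% over the lines labelled KO, where the medians over all genes tested were 9.03% and 13.8%. The group values were 13.2 ± 0.758 CPM for WT and 4.42 ± 0.824 CPM for the lines labelled KO (SD, n = 3 each). The log2 fold change was -1.56 with an SE of 0.17 and an edgeR adjusted p of 0.000189. By size this change was at the 93.5th percentile of all genes tested. With KO line 3 left out it was -1.42, and it was -1.39 when WT line 19 was left out as well (edgeR adjusted p = 4.15e-06).

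Because Timp1 is X-linked, its level was also set beside that of Xist, the RNA of the inactive X chromosome, which differed within both labels. Xist was high (15470 to 20510 CPM) in WT lines 3 and 8 and KO line 3, and low (1.67 to 81.8 CPM) in WT line 19 and KO lines 13 and 16. Among Xist-high lines Timp1 was 12.3 and 13.53 CPM in WT and 3.47 CPM in the library labelled KO. Among Xist-low lines it was 13.7 CPM in WT, against 4.95 and 4.85 CPM. Each of these states holds a single library of 1 label (KO line 3 and WT line 19), so the values within a state are a description. With Xist state as a covariate the log2 fold change was -1.66 (edgeR adjusted p = 0.000109). Without WT line 19 and KO line 3, the WT lines left were Xist-high and the KO lines Xist-low. Label and Xist state therefore cannot be told apart in the fit that leaves out both.

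The gene lies within Syn1, a synaptic vesicle gene on the opposite strand, and shares 0 exon bases with it. If the counting did not use strand, unspliced Syn1 RNA over Timp1 exons would be counted as Timp1. Syn1 was at 9.84, 9.78 and 14.2 CPM in WT lines 3, 8 and 19 and 11.8, 13.2 and 16.4 CPM in KO lines 3, 13 and 16. The groups overlapped, and it did not pass the test (log2 fold change 0.29, edgeR adjusted p = 0.25).

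The bases before the start of Timp1 are shown because this member changed most, and those of Mmp14 because it moved the other way. Both come from RefSeq for GRCm38.p6, whose table matched 7 of the 10 members (not Mmp2, Mmp16 and Mmp17). Each run is the plus strand, 5′ to 3′, from 250 bases before the annotated start to the base before it, Timp1 at chrX:20869916-20870165 and Mmp14 at chr14:54431348-54431597. Capitals mark every match, on either strand, to 5 short motifs of factors known to act on this family: TGANTCA (AP-1), TGAGTAA (a variant AP-1 element), GGGCGG (Sp1), AGGAAG (ETS) and TGTGGT (RUNX).
Timp1: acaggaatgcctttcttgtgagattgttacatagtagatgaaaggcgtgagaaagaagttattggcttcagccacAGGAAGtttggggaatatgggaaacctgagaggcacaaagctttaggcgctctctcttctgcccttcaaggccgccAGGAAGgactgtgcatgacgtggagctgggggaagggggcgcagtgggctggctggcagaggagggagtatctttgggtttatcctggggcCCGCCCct
Mmp14: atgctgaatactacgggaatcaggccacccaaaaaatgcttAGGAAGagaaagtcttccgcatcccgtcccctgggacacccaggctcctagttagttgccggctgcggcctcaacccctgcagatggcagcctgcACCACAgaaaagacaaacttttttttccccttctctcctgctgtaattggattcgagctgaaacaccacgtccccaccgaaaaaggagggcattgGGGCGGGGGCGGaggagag

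In the Timp1 run the capitals are 2 ETS matches, at -175 and -99 from the start, and an Sp1 match at -8 on the opposite strand. In Mmp14 they are an ETS match at -209, a RUNX match at -114 on the opposite strand, and 2 adjoining Sp1 matches at -19 and -13. The only AP-1 type match in the 7 members' windows was past the start of Timp1, at 27, with a further ETS match at 41. It is shown here in 30 bases (chrX:20870184-20870213, plus strand), with both matches in capitals.
Timp1 after the start: tgggtggaTGAGTAAtgcgtccAGGAAGcc

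In windows of 300 bases (250 before and 50 after a start) the variant AP-1 element was present in 2.68% of the 32851 promoters of the table, the AP-1 motif in 7.81%, the Sp1 motif in 35.7%, the ETS motif in 35.4% and the RUNX motif in 16.8%. TGANTCA was found in 0 of the 7 members' windows. Sp1 matches were present in 6 of the 7, all but Timp4. A match describes letters and not binding. The motifs were chosen because their factors are known to act on this family. The shares over all promoters are therefore no test of a match in a member, the variant AP-1 element of Timp1 included.

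The other 3 inhibitors did not pass the test. In GRCm38 they lie on chromosome 11 (Timp2, 118301069 to 118355740), chromosome 10 (Timp3, 86300372 to 86349506) and chromosome 6 (Timp4, 115241892 to 115252205). Timp2, the partner of Mmp14 in Mmp2 activation, was at 18.1, 23.7 and 20.8 CPM in WT lines 3, 8 and 19 and at 14.4, 15.6 and 19.1 CPM in KO lines 3, 13 and 16. Only WT line 3 and KO line 16 overlapped. Its log2 fold change was -0.35 (SE 0.15, edgeR adjusted p = 0.097), and without KO line 16 it passed at -0.46 (edgeR adjusted p = 0.0426). Timp3, the matrix-bound inhibitor, was the most abundant inhibitor row by CPM, at 53, 55.2 and 61.5 CPM in WT and 55.3, 47.2 and 45.8 CPM in the libraries labelled KO. KO line 3 lay inside the WT range, and the log2 fold change of -0.20 (SE 0.12) had an edgeR adjusted p of 0.207. Without KO line 3 it was -0.28 and passed (edgeR adjusted p = 0.0378). Timp4, an inhibitor known from brain and heart, was at 12.6, 11.6 and 11.4 CPM in WT and 12, 11.6 and 13.9 CPM in the libraries labelled KO. Its groups overlapped, with a log2 fold change of 0.08 (standard error 0.13, edgeR adjusted p = 0.666).

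Timp3 and Timp4 each lie inside a synapsin gene on the opposite strand. Timp3 shares 1733 exon bases, 21.3% of its own, with Syn3, and Timp4 shares 90, or 1.53%, with Syn2. Syn2 rose from 17.9 ± 2.14 to 30.0 ± 2.72 CPM (SD, n = 3 each, log2 fold change 0.75, edgeR adjusted p = 0.00213). Syn3 was at 14.5 ± 1.75 CPM in WT and 11.1 ± 1.11 CPM in the other group (log2 fold change -0.39), which did not pass. Without strand, reads of these pairs over shared bases cannot be told apart. Unspliced Syn3 or Syn2 RNA over the other exon bases of Timp3 or Timp4 would then also be counted as Timp3 or Timp4.

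Mmp14 (ENSMUSG00000000957.11, chromosome 14, 54431612 to 54445364 in GRCm38, plus strand) is the main activator of Mmp2 and a collagen-cutting protease of the cell surface. It was at 9.18, 10.6 and 16.2 CPM in WT lines 3, 8 and 19 and at 15.6, 22.2 and 23.4 CPM in KO lines 3, 13 and 16. WT line 19 was slightly above KO line 3, so the groups overlapped in those 2 libraries. The group values were 11.99 ± 3.72 and 20.4 ± 4.18 CPM (SD, n = 3 each), and the log2 fold change was 0.77 with an SE of 0.23 (edgeR adjusted p = 0.0256). The call was lost without WT line 3, WT line 8, KO line 13 or KO line 16 (log2 fold changes of 0.61, 0.69, 0.71 and 0.68, edgeR adjusted p of 0.0926, 0.094, 0.0778 and 0.0696). With WT line 19 and KO line 3 both left out, the log2 fold change was 1.21 (edgeR adjusted p = 3.11e-06). The WT lines then left were Xist-high and the KO lines Xist-low, so label and Xist state cannot be told apart in that fit. With Xist state as a covariate the log2 fold change of Mmp14 was 0.57 (edgeR adjusted p = 0.00625).

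Mmp16 (ENSMUSG00000028226.15, chromosome 4, 17852893 to 18119145, plus strand), another transmembrane activator of Mmp2, has the longest gene body of the 10, at 266253 bases. Its level was 8.3, 6.69 and 7.1 CPM in WT lines 3, 8 and 19 and 15.3, 11.8 and 10.3 CPM in KO lines 3, 13 and 16. All libraries labelled KO were above all WT libraries, and KO line 3 was the highest. The log2 fold change of 0.75 (standard error 0.18, edgeR adjusted p = 0.00931) stayed past the threshold whichever single library was left out, and was 0.59 without KO line 3.

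Mmp15, a transmembrane protease (chromosome 8, 95352268 to 95375080), was by far the most abundant protease of the 10. It measured 222, 212 and 251 CPM in WT lines 3, 8 and 19 and 239, 280.4 and 305 CPM in KO lines 3, 13 and 16. WT line 19 was above KO line 3, and it missed the threshold with a log2 fold change of 0.27 (standard error 0.12, edgeR adjusted p = 0.113). It passed without KO line 3 (0.36, edgeR adjusted p = 0.00932) and without both of these libraries (0.43, edgeR adjusted p = 0.00218). In the latter setting label and Xist state again coincide. Without WT line 3, 8 or 19 or KO line 13 or 16 it did not pass (edgeR adjusted p from 0.0983 to 0.309). With Xist state as a covariate the log2 fold change was 0.18 (edgeR adjusted p = 0.145), and Mmp15 passed in 3 of 17 alternative settings.

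Mmp17, the lipid-anchored member (chromosome 5, 129584169 to 129611099), was at 12.6, 11.4 and 13.6 CPM in WT and 11.3, 9.56 and 10.3 CPM in the libraries labelled KO. The groups did not overlap, but WT line 8 and KO line 3 nearly met, and the threshold was missed at a log2 fold change of -0.27 (standard error 0.14, edgeR adjusted p = 0.139). Mmp2, the secreted gelatinase (chromosome 8, 92827291 to 92853420), was at 3.04, 6.38 and 3.25 CPM in WT lines 3, 8 and 19 and 2.67, 2.41 and 3.05 CPM in KO lines 3, 13 and 16. WT line 8 stood apart, so that the coefficient of variation of Mmp2 over WT lines was 44.3%, against a median of 9.03% over all genes tested. The log2 fold change was -0.63 (SE 0.30, edgeR adjusted p = 0.121) and was -0.21 without WT line 8.

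Mmp24, a transmembrane protease of the nervous system that cuts N-cadherin (chromosome 2, 155775342 to 155818366), had 10, 9 and 5 counts in WT lines 3, 8 and 19 and 6, 11 and 12 in KO lines 3, 13 and 16. These are 0.271 to 0.515 CPM, where 3 counts are worth 0.11 to 0.163 CPM, so Mmp24 was left out by the count filter. In the fit with no filter on low counts its log2 fold change was 0.27, with a standard error of 0.45 and an edgeR adjusted p of 0.69. Its exons share 637 bases (13.6%) with BC029722 on the opposite strand, which was at 3.25 ± 0.616 CPM in WT and 2.37 ± 0.513 CPM in lines labelled KO (SD, n = 3 each) and did not pass.

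**Figure D2:**
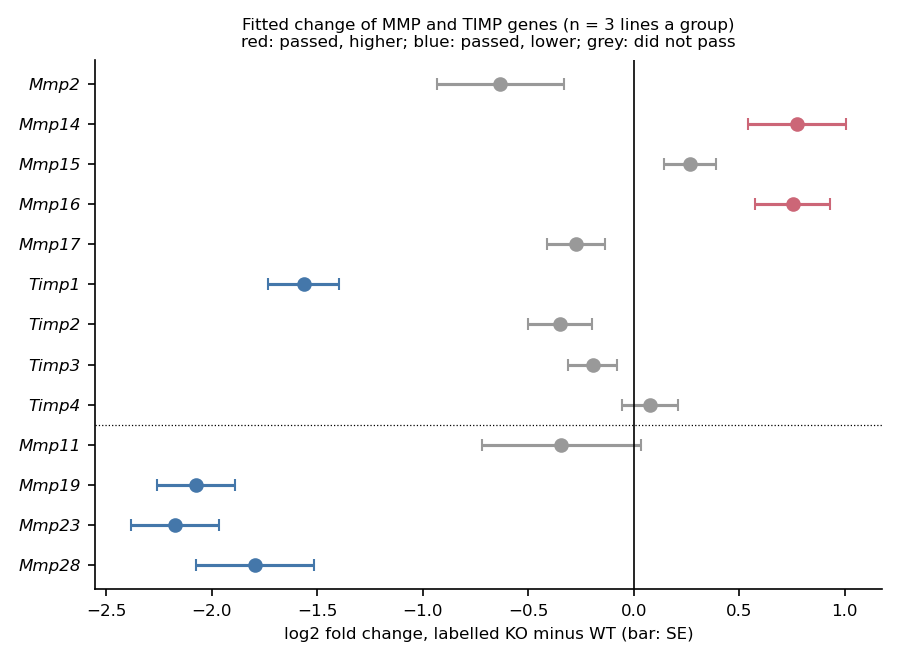
Fitted log2 fold change, libraries labelled KO minus WT (horizontal axis), with its SE, for the 9 tested members and, under the dotted line, the 4 other MMP genes that were tested. Timp1 at -1.56, Mmp14 at 0.77 and Mmp16 at 0.75 passed among the members, and Mmp19, Mmp23 and Mmp28 passed at -2.07, -2.17 and -1.79.

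To order the members by level, CPM was divided by the exon length of each gene (union of annotated exons, in kilobases). In WT, Mmp15 led at 42.3 ± 3.78 CPM per kb, followed by Timp1 at 14.8 ± 0.853, Timp3 at 6.95 ± 0.539 and Timp2 at 5.35 ± 0.718 (SD, n = 3 each). Mmp14 (2.01 ± 0.624), Timp4 (2.01 ± 0.113), Mmp17 (1.89 ± 0.171) and Mmp2 (1.25 ± 0.556) came next on this scale and overlapped with a neighbour in the order. Mmp16 (0.850 ± 0.0968) overlapped with Mmp2, and Mmp24 was last at 0.0778 ± 0.0197 CPM per kb. In the libraries labelled KO, Mmp15 led again at 50.9 ± 6.23 CPM per kb. Timp3 (6.07 ± 0.625) was second there, and Timp1 (4.98 ± 0.928) overlapped with Timp2 (4.19 ± 0.624), which overlapped with Mmp14 (3.42 ± 0.701). Timp1 has only 888 exon bases, the fewest of the 10, which raises its place on this scale relative to plain CPM.

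Summed over members, the inhibitor RNA was lower relative to the protease RNA in every library labelled KO. The 4 TIMPs summed to 27.1, 30.1 and 30.2 CPM per kb in WT lines 3, 8 and 19 and to 16.4, 17.3 and 18.4 in KO lines 3, 13 and 16. The 6 proteases summed to 46.5, 45.6 and 53.2 CPM per kb in WT and to 51.2, 59.3 and 64.2 in the libraries labelled KO. The ratio of the 2 sums was 0.584, 0.66 and 0.568 in WT and 0.321, 0.292 and 0.286 in the libraries labelled KO, given as a description with no test. Timp1 made up 50.7% to 51% of the TIMP sum in WT and 23.8% to 32.2% in the libraries labelled KO, and Mmp15 made up 86.3% to 88.4% of the MMP sum over the 6 libraries. Without Timp1 the ratio was 0.279 to 0.325 in WT and 0.198 to 0.245 in the libraries labelled KO. Without Mmp15 the inhibitor sum was above the protease sum in every library, the ratio being 4.56 to 5.04 in WT and 2.36 to 2.39 in the libraries labelled KO. With plain CPM in place of CPM per kb the ratio over all members was 0.368 to 0.42 in WT and 0.237 to 0.3 in the libraries labelled KO. The protease sums leave out Mmp19, Mmp23 and Mmp28, which were at 4.54, 2.52 and 1.66 CPM per kb in WT. In the libraries labelled KO these genes were at 1.08, 0.56 and 0.473 CPM per kb. By group mean, Mmp19 and Mmp23 were each above Mmp14 (2.01 CPM per kb), the highest member protease after Mmp15, in WT. In the libraries labelled KO both were below Mmp14 (3.42 CPM per kb). The ratios, with or without Mmp15, therefore hold for the members alone, and none was computed with these genes. In particular, the lower ratio without Mmp15 in the libraries labelled KO is not shown for the MMP genes as a whole.

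**Figure D3:**
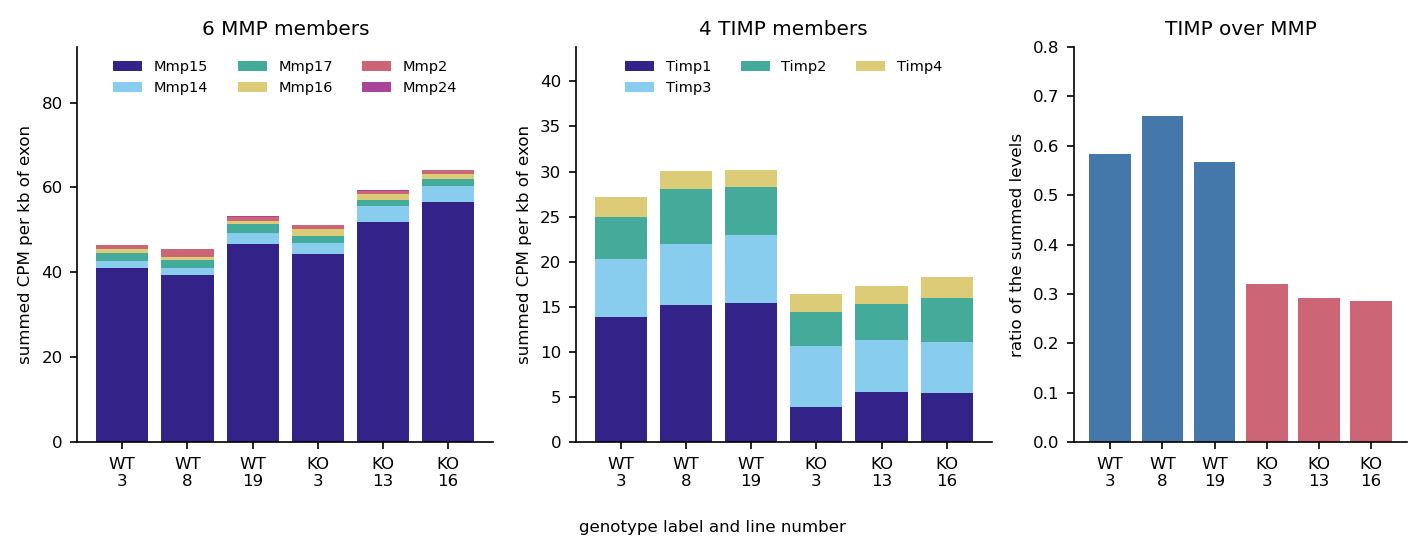
Stacked levels of the 6 MMP members (left) and the 4 TIMP members (middle) in CPM per kb of exon, and the ratio of the sums (right), for each line by its label. Timp1 is the lowest block of the TIMP bars and shrinks from 13.8 to 15.4 in WT to 3.91 to 5.57 in the libraries labelled KO, while Mmp15 fills most of every MMP bar.

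Of the 17 other MMP genes listed, 6 had no count in any library (Mmp1a, Mmp7, Mmp8, Mmp12, Mmp20 and Mmp27), 7 had too few counts to be tested, and 4 were tested. Among those 4, 3 fell and 0 rose. Mmp19, a secreted protease that Timp1 inhibits poorly, fell from 16.02 ± 1.64 to 3.82 ± 0.823 CPM (SD, n = 3 each, log2 fold change -2.07, SE 0.18). Mmp23, a membrane-linked MMP, fell from 5.91 ± 0.425 to 1.31 ± 0.258 CPM, and Mmp28, or epilysin, from 6.42 ± 2.09 to 1.83 ± 0.364 CPM. The edgeR adjusted p of the 3 genes ran from 7.47e-05 to 0.00122. Mmp11 was at 0.698 and 0.555 CPM and did not pass. The secreted gelatinase Mmp9, with 4 to 11 counts per library, was not tested, and neither was the stromelysin Mmp3, with 1 count in all.

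Genes that activate, bind or clear MMPs went up and down: among 18 tested there were 4 that rose, 7 that fell and 7 short of the threshold (median log2 fold change -0.51). Reck, a membrane-anchored inhibitor of Mmp2, Mmp9 and Mmp14, was at 33.2, 32.6 and 32 CPM in WT lines 3, 8 and 19 and 41.1, 43 and 38 CPM in KO lines 3, 13 and 16. Its rise was small (log2 fold change 0.32, SE 0.10, edgeR adjusted p = 0.032), and the call was lost with library size alone as the scale, with Rn45s and Xist removed, and without WT line 3, 8 or 19 or KO line 13 (edgeR adjusted p up to 0.124). Thbs2, a thrombospondin that binds Mmp2, fell from 105.5 ± 49 to 8.82 ± 2.66 CPM, and Thbs1 rose from 2.16 ± 0.312 to 11.03 ± 4.57 CPM. Spock2, a testican, rose by 1.82 on the log2 scale (SE 0.22), and Pcsk5, a furin-like convertase, by 1.19 (SE 0.21). Pcsk5 went from 5.28 to 12.06 CPM. The more abundant Furin fell from 52.86 to 30.95 CPM (log2 fold change -0.77, edgeR adjusted p = 0.00883), and Pcsk6 and Pcsk7 did not pass. Itgav, an integrin chain, Plat, the tissue plasminogen activator, and Serpine2, a serine protease inhibitor, fell (log2 fold changes -1.67, -1.11 and -0.998). When KO line 3 was left out, 7 genes of this list rose and 8 fell.

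The related ADAM and ADAMTS proteases, some of them inhibited by Timp3, were nearly all measurable. Of 10 ADAM genes tested, 6 fell, 1 rose and 3 did not pass (median log2 fold change -0.58). Adam10 and Adam17, the main sheddases of the cell surface, fell from 350 ± 19.7 to 123 ± 23.6 CPM and from 120 ± 3.09 to 80.2 ± 7.73 CPM, while Adam23, an adhesion protein without protease activity, rose by a log2 fold change of 0.97. Of 17 ADAMTS genes tested, 10 rose, 6 fell and 1 did not pass (median log2 fold change 0.99). Adamts10 rose from 80.5 ± 2.45 to 182 ± 11.2 CPM and Adamts16 from 0.346 ± 0.102 to 2.72 ± 1.02 CPM. Adamts4, which cuts proteoglycans such as brevican, fell from 138 ± 34.4 to 50.3 ± 14 CPM (SD, n = 3 each).

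Among matrix and surface proteins known to be cut by MMPs, 23 were tested, of which 7 rose and 12 fell. The hyaluronan receptor Cd44, which docks and is cut by Mmp14, fell from 228 ± 33.3 to 32.9 ± 0.51 CPM (log2 fold change -2.79, SE 0.13, edgeR adjusted p = 5.6e-06), and the syndecan Sdc4 from 120.5 ± 3.77 to 29.2 ± 2.69 CPM. Bcan, or brevican, rose from 432 ± 12.4 to 1025 ± 43 CPM and the Notch ligand Dll1 from 42.6 ± 4.8 to 142 ± 10.7 CPM. These counts stand beside the 42.3% of all genes that passed, and nothing is read from them about the lists as groups.

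**Figure D4:**
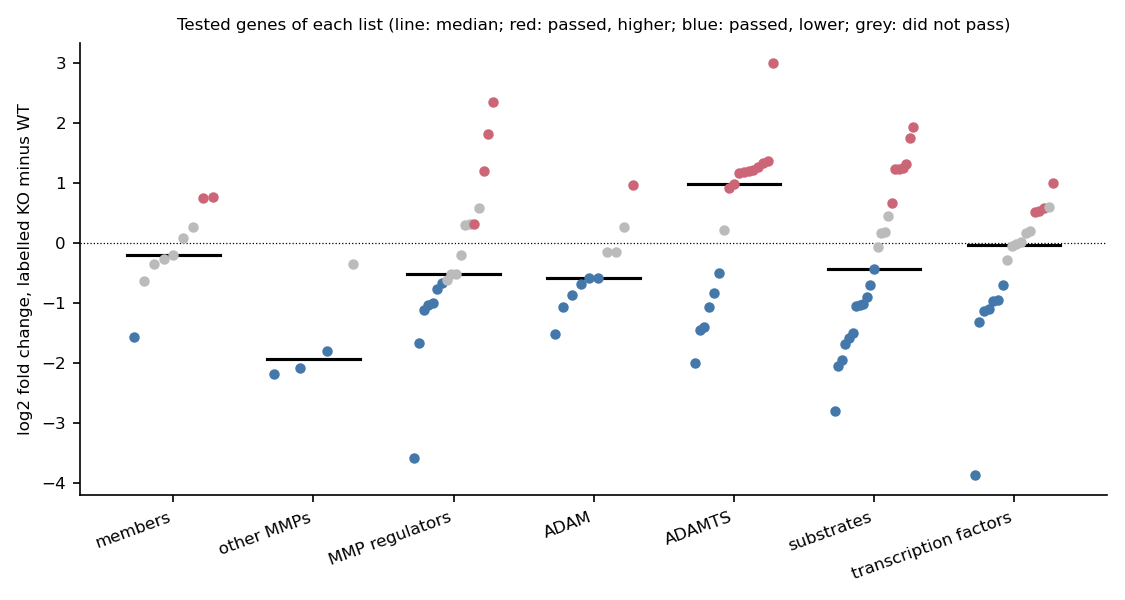
Log2 fold change, libraries labelled KO minus WT (vertical axis), of each tested gene of the members and of 6 related lists, with the median of each list as a black line. The members spread from -1.56 to 0.77 around a median of -0.20, the other MMPs have a median of -1.93, and the ADAMTS list has points on both sides of 0.

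The cultures were checked against marker genes. Of 9 radial glia and neural precursor markers, all were measured, with Nes at 1786 to 2869 CPM and Sox2 at 98.1 to 146 CPM. The whole list summed to 7977 to 8969 CPM in WT and 5930 to 7320 CPM in the libraries labelled KO, with 2 of 9 lower. Both calls were lost without WT line 3, WT line 8, WT line 19 or KO line 13, and without WT line 8 the number higher was 1. Of 7 tested astrocyte markers 3 fell and 0 rose, a share of 42.9% beside 42.3% over all genes, and without KO line 3 the counts were 2 and 1 (summed 290.4 to 558 CPM in WT, 197 to 284 CPM labelled KO), and Gjb6 was at 0 in 5 of 6 libraries. Those that fell were Gfap (from 17.9 to 2.03 CPM), Agt (from 10.3 to 0.26 CPM) and Aldh1l1 (from 216 to 82.4 CPM). Of 7 tested oligodendrocyte lineage markers 4 rose and 0 fell, or 4 and 1 without KO line 3 (685 to 766 CPM in WT, 1110 to 1309 CPM labelled KO), and Mbp was at 0 in the WT libraries. Pdgfra rose from 2.31 to 39 CPM and Gpr17 from 0.0582 to 2.62 CPM. Sox10 rose from 0.469 to 3.26 CPM and Olig2 from 349 to 694 CPM. Fibroblast and meningeal markers summed to 28 to 34.3 CPM in WT and 16.4 to 34.5 CPM in the libraries labelled KO, with 2 of 4 tested higher (Col1a1 and Pdgfrb) and 1, Foxc1, lower. The number higher was 1 without WT line 3, WT line 19, KO line 13 or KO line 16, and without KO line 3 the number lower was 2. Col1a1 was at 1.35 CPM in WT and 3.56 CPM in the libraries labelled KO. Col3a1, which did not pass, was at 3.95 to 5.97 CPM in WT and at 12.9, 0.254 and 1.63 CPM in KO lines 3, 13 and 16. Foxc1 alone held 12.1 to 25.9 CPM over the 6 libraries, and Dcn and Lum were at or under 0.488 CPM. Of 5 tested neuronal markers 2 rose, Dcx and Snap25 (list sums of 14.5 to 21.8 CPM in WT, 32 to 56.2 CPM labelled KO). That is a share of 40% beside 42.3% over all genes, and Tubb3, Rbfox3 and Syt1 did not pass. Dcx went from 0.639 to 11.3 CPM and Snap25 from 1.04 to 6.63 CPM. Endothelial markers summed to 12.5 to 17.7 CPM and 11.6 to 14.9 CPM, with 1 of 5 higher and 2 lower. The number lower was 1 without WT line 3, 8 or 19 or KO line 13 or 16, and the number higher was 0 without WT line 3 or WT line 19. Microglial markers summed to 0.549 to 1.34 CPM, with Tmem119 and C1qa at 0 in every library. The share called was 22.2% of tested radial glia markers and 57.1% of tested oligodendrocyte lineage markers. It was 75% of tested fibroblast and meningeal markers and 60% of tested endothelial markers. These shares of short lists stand beside 42.3% over all genes and were not tested. The part of these marker shifts in the changes of Timp1, Mmp14 and Mmp16 was not tested.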

How the data were processed

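Nuclear RNA of 6 libraries, 3 labelled WT and 3 labelled KO, was measured. The deposited files hold raw, unscaled counts for each gene symbol. The submitters' processing notes name cutadapt 1.14, STAR, HTSeq 0.7.2, DESeq2 and build mm10. Annotation, strand setting and each tool's role were not given in the sources used here.

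Counts of all 23337 rows were fitted with edgeR 4.0.16 in R 4.3.3 (filterByExpr, TMM factors, robust quasi-likelihood test over the 6 libraries, 4 residual degrees of freedom), two-sided, with Benjamini-Hochberg adjustment over the 13925 genes that passed the filter and a threshold of 0.05. The standard error (SE) was derived from the F statistic. CPM were scaled by TMM. Positions and exon lengths came from GENCODE mouse release M21 (GRCm38), promoters from RefSeq. The fit was tested on data drawn from these libraries' means and depths. Limits given as 3 counts cover counting error only.

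The members and lists were chosen with earlier results of these data known. Named were Fmr1, all members, and for each tested member the listed gene with the most similar profile (log2 CPM, prior count 2). Genes that overlap a member were candidates, as were up to 4 called genes in each direction per related list, by smallest adjusted p. Not every candidate is named in the text, and those left out were not picked by a rule. List members outside these candidates are named with their values. Alternatives were other size factors, other count filters, DESeq2 1.42.0, limma-voom (limma 3.58.1) without and with sample weights, Rn45s and Xist removed, Xist state (1000 CPM) as a covariate, and libraries left out.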

Additional observations from a re-analysis of the deposited data

How the results depend on the processing

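Under 17 alternatives, Timp1 stayed lower (log2 fold changes from -1.66 to -1.39) and Mmp16 higher (0.56 to 0.88), past the threshold in all 17, and Mmp14 stayed higher (0.57 to 1.21), past it in 13. The number of members higher in the libraries labelled KO was 2, and with a single library left out it ran from 1 to 3. The number lower was 1, or 1 to 2 with a library left out. In limma-voom with sample weights 3 were higher and 2 lower, with Mmp15 (0.32, adjusted p = 0.0135) and Mmp17 (-0.34, adjusted p = 0.0353) added. Fmr1, at -0.58 without KO line 3, turned positive without KO line 13 (0.04) and without KO line 16 (0.14). None of the 9 tested members changed direction under any of the 17, and the cause of these shifts was not tested. Over all genes 5884 passed, and 4262 to 7610 did so with a single library left out. In limma-voom with sample weights 7973 passed. Mmp24, at 5 to 12 counts per library, had a standard error of 0.45 on the log2 scale in the fit with no count filter. No paired analysis was possible because the groups share only the line number 3.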

Other observations

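Transcription factors known to act on MMP and TIMP genes also went up and down: 4 of the 18 tested rose and 7 fell, at a median log2 fold change of -0.03, beside 42.3% called over all genes. Without KO line 3 the number that rose was 6, and the number that fell was 6 without WT line 3, WT line 19 or KO line 16. The AP-1 subunits Fos, Fosl1, Fosl2, Jun and Junb all fell. Jund went the other way, from 18.4 ± 4.59 to 27.6 ± 6.51 CPM, and narrowly did not pass (log2 fold change 0.59, edgeR adjusted p = 0.0501). Junb was at 39.9 ± 9.85 CPM in WT and 20.8 ± 3.95 CPM in lines labelled KO (SD, n = 3 each, log2 fold change -0.94, edgeR adjusted p = 0.00537), and Fosl2 at 47.9 ± 7.72 and 22.5 ± 4.23 CPM. Fosl1 was close to the threshold, at 1.16 ± 0.309 and 0.586 ± 0.153 CPM from 9 to 34 counts per library (edgeR adjusted p = 0.0419). Fos had a log2 fold change of -1.31 and Jun of -0.70. Runx1, a runt-domain factor, was at 12.1, 10.9 and 15.2 CPM in WT lines 3, 8 and 19 and at 1.07, 0.677 and 0.901 CPM in KO lines 3, 13 and 16, with no overlap (log2 fold change -3.86, SE 0.23, edgeR adjusted p = 1.85e-05). Runx2 fell by 1.13 on the log2 scale. The ETS factors Ets1, Etv4 and Etv5 rose by log2 fold changes of 1.001, 0.54 and 0.51. Ets2 did not pass (log2 fold change -0.015, edgeR adjusted p = 0.939). The part of these transcription factors in the levels of Timp1, Mmp14 or Mmp16 was not tested.

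Over the 6 libraries, the profile of each tested member was compared with 90 genes of the related lists by Pearson's r of log2 CPM. Each r is the highest of 90 over libraries that share 2 labels, so it is a description. It is followed by the r of the same pair after the mean of each label was removed. Timp1 was most like the syndecan Sdc4 (r = 0.989, then 0.86), Mmp16 most like Adamts20 (r = 0.99, then 0.95), Mmp17 most like Junb (r = 0.982, then 0.98), and both Mmp14 and Mmp15 most like Jund (r = 0.949 and 0.973, then 0.89 and 0.94). Timp3 was most like the transglutaminase Tgm2 (r = 0.945, then 0.92), and Timp2 and Mmp2 were most like the plasminogen activator Plau (r = 0.945 and 0.807, then 0.88 and 0.66). Timp4 had no close match, with its highest r at 0.572 for Adamts8 (then 0.57).

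Mmp25, the second lipid-anchored MMP, was too low for the filter and was singled out after its counts were seen. It had 2, 2 and 1 counts in WT lines 3, 8 and 19 and 4, 9 and 11 counts in KO lines 3, 13 and 16. In the fit with no filter on low counts, which also gave the value of Mmp24, its edgeR adjusted p was 0.021. At 5 counts over the WT libraries, the size of the difference is poorly set by these data.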
